A study of Mus musculus with 12 samples.

Results

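The UDP-glucuronosyltransferases (UGT), cytosolic sulfotransferases (SULT) and glutathione S-transferases (GST) were followed as mRNA in bulk mouse liver. Members were the protein-coding rows of the count tables whose gene symbol begins with Ugt1a, Ugt2a, Ugt2b, Ugt3a, Sult with a number, or Gst with a class letter (a, k, m, o, p, t or z) and a number. This rule found 64 of 54532 genes, of which 21 were UGT, 21 SULT and 22 GST, and it used no measured value. A further 7 rows whose symbols fit the pattern were of another gene type and were left out. The livers came from male PPARγ flox/flox mice that received, at 8 weeks of age, an intraperitoneal injection of an AAV8 vector driven by TBG, a hepatocyte-specific promoter. The vector carried Cre in the libraries labelled PPARγ-KO (AAV8.TBG.PI.Cre) and eGFP in the control libraries labelled WT (AAV8.TBG.PI.eGFP), so that every animal carried the floxed allele and every animal received a virus. All groups ate a fast-food diet (FFD) rich in saturated fat, cholesterol and sucrose, with fructose and glucose in the drinking water, for 2 or 5 months. Each of the 4 groups held 3 libraries, 12 in all. The vector was directed to hepatocytes by its promoter, while the RNA came from whole liver.

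Conjugation, or phase II metabolism, makes lipophilic compounds soluble enough to be exported in bile or urine. UGT enzymes sit in the endoplasmic reticulum and transfer glucuronic acid from UDP-glucuronic acid to bilirubin, steroids, bile acids and drugs, whereas SULT enzymes are cytosolic and transfer sulfate from the donor PAPS to phenols, steroids and bile acids. GST enzymes couple glutathione to electrophiles, including products of lipid peroxidation, and are grouped into classes by sequence. Nuclear receptors such as CAR, PXR and PPARα and the stress factor NRF2 are known to control many of these genes in hepatocytes, and several of them differ between male and female mouse liver.

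The libraries held 16367775 to 27452284 counted reads (median 18360932), and the 64 members together took 0.9416% to 1.4703% of each. In the libraries labelled PPARγ-KO, Pparg itself was not lower than in WT. At 2 months its normalized level (CPM, read counts scaled to a common library size) was 38.8, 41.4 and 37.6 in the WT libraries and 50.4, 66.5 and 52 in those labelled PPARγ-KO. At 5 months the WT libraries held 36.9, 41.4 and 37.1 CPM and the PPARγ-KO libraries 86.5, 92.9 and 75 CPM. Counts were summed over the whole gene, so that a transcript lacking the floxed exons would still be counted, and the labels could not be checked with this gene. Among replicates, WT replicate 1 at 2 months stood farthest from its group, with a chi-square per gene of 31.68 and 27.61 against its partners and 10.26 between those partners. The closest pair was WT replicates 2 and 3 at 5 months, with 2.441. The labels call the libraries repeats and do not say whether each is a separate animal, so that the spread in WT at 5 months may be understated. In the summed level of 10 hepatocyte markers the groups did not overlap, running from 61900 to 73300 CPM in WT and from 80500 to 93500 CPM in PPARγ-KO at 2 months, and from 61200 to 66400 and from 81600 to 93100 CPM at 5 months. Of these 10 markers, 1 was called higher at 2 months and 2 at 5 months, and none of the 10 was at 0. Alb made up most of the sum, with means of 36900 CPM in WT and 57100 CPM in PPARγ-KO at 5 months. At 2 months all 10 markers had a positive fold change, with a median log2 value of 0.35. At 5 months 6 of the 10 had one, with a median of 0.18. The sum of 12 macrophage markers was 1170 to 1310 CPM in WT and 550 to 722 CPM in PPARγ-KO at 5 months, where 10 of the 12 were called lower. The sum of 12 stellate cell markers was 811 to 988 CPM in WT and 635 to 662 CPM in PPARγ-KO at 2 months, and 965 to 1100 and 765 to 851 CPM at 5 months. These marker sums moved with the genotype label, and their part in the results for the conjugating enzymes was not tested. In bulk liver, fewer cells of a type and less RNA per cell cannot be told apart.

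GST genes were the most abundant of the 3 superfamilies. Levels compared between genes are given as the mean normalized CPM per kilobase of gene length over all 12 libraries. Gstm1, the main class mu transferase of liver, stood first with 1660, followed by Gstp1 with 530, Ugt2b5 with 380, Gsta3 with 366 and Ugt2b36 with 331. These ranks depend on the length used. The file gives Gstp1 a length of 757 bases against 1548 in GENCODE M21, and per kilobase of the latter it stood at 259, below Ugt2b5, Gsta3 and Ugt2b36. Gstt1 led class theta with 166, Gstz1, which also acts as maleylacetoacetate isomerase in tyrosine breakdown, stood at 134, Gstk1 at 77.2 and Gsto1 at 30.3. Sult2a8, a sulfotransferase of bile acids, led the SULT genes with 145 and supplied 57.9% of their summed CPM. Ugt3a2 stood at 122, and Ugt1a1, the bilirubin transferase, led the UGT1A genes with 40.9, or 236 per kilobase of exon that it shares with no other gene. Of the 64 members, 9 had fewer than 10 counts over all libraries, among them 5 with none. The filter on low counts left 44 members tested in each comparison (16 UGT, 8 SULT and 20 GST) and left out 20 members, 13 of them SULT genes.

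Some of these genes cannot be counted apart with certainty. The 9 Ugt1a genes on chromosome 1 join different first exons to shared last exons, and 50.3% to 82.7% of their exon bases belonged to another gene. Ugt2a1 and Ugt2a2, both at 0 in every library, share 98.8% and 94.5% of their exon bases, and whether the counting left out such reads was not tested. Of the 100-base stretches of Gsta1, 80.6% recurred exactly in Gsta2 or in Gm3776. The share was 46.9% for Gstp2, 28.4% for Gsta2, 25.1% for Gstp1, 24.7% for Ugt2b5 and 24.2% for Ugt2b38. It was 0 for Gsta3, Gstp3, Sult1b1, Sult2a7, Sult2a8, Sult5a1 and Ugt2b1. Of the exon bases, 13.6% of Gstt3 overlapped Gm20441 on the same strand, and 13.9% of Gstm5 overlapped 4933431E20Rik on the opposite strand, with the strand setting of the counting not given in the sources used here. On GRCm38 (mm10), the genes described most closely lay as follows: Ugt1a5 at chr1:88166012-88218997 (plus strand), Gsta3 at chr1:21240589-21265661 (plus strand), Ugt2b1 at chr5:86916638-86926530 (minus strand), Ugt2a3 at chr5:87324972-87337195 (minus strand), Sult1b1 at chr5:87513339-87538195 (minus strand), Sult2a8 at chr7:14410686-14446769 (minus strand), Sult2a7 at chr7:14465051-14494230 (minus strand), Sult5a1 at chr8:123140192-123158315 (minus strand), Gstp1 at chr19:4035407-4037921 (minus strand) and Gstp3 at chr19:4057477-4059446 (minus strand).

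PPARγ-KO and WT livers were first compared at each time. After 2 months of FFD, 3 of the 44 tested members were called at an adjusted p under 0.05, and all 3 were higher in PPARγ-KO, where 1.78% of the 14573 genes tested were called higher and 1.78% lower. After 5 months, 13 members were called, 12 higher and 1 lower, where 8.9% of 14138 genes were called higher and 9.51% lower. The median log2 fold change of the tested members was 0.17 at 2 months and 0.28 at 5 months, beside -0.005 and -0.006 over all genes. Positive fold changes were found for 29 of 44 members at 2 months and for 32 at 5 months. The numbers of members with an unadjusted p under 0.05 were 15 and 26. For some genes below, the libraries of the 2 genotypes are said not to overlap or to be separate. The share of all genes with such separation was not counted, so it describes the values and is not a test. At 2 months, same-numbered replicates of the 2 genotypes had correlated deviations (0.221, 0.325 and 0.139), beside at most 0.115 in pairs of unlike number. The labels name no pairing, so it was read from these same libraries. With the replicate number as a block, the fit called 8 members, 7 higher and 1 lower, with 2.96% of genes called higher and 2.65% lower. Without WT replicate 1 at 2 months the fit called 14 members, all higher, with 5.31% of genes called higher and 5.25% lower.

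**Figure D1:**
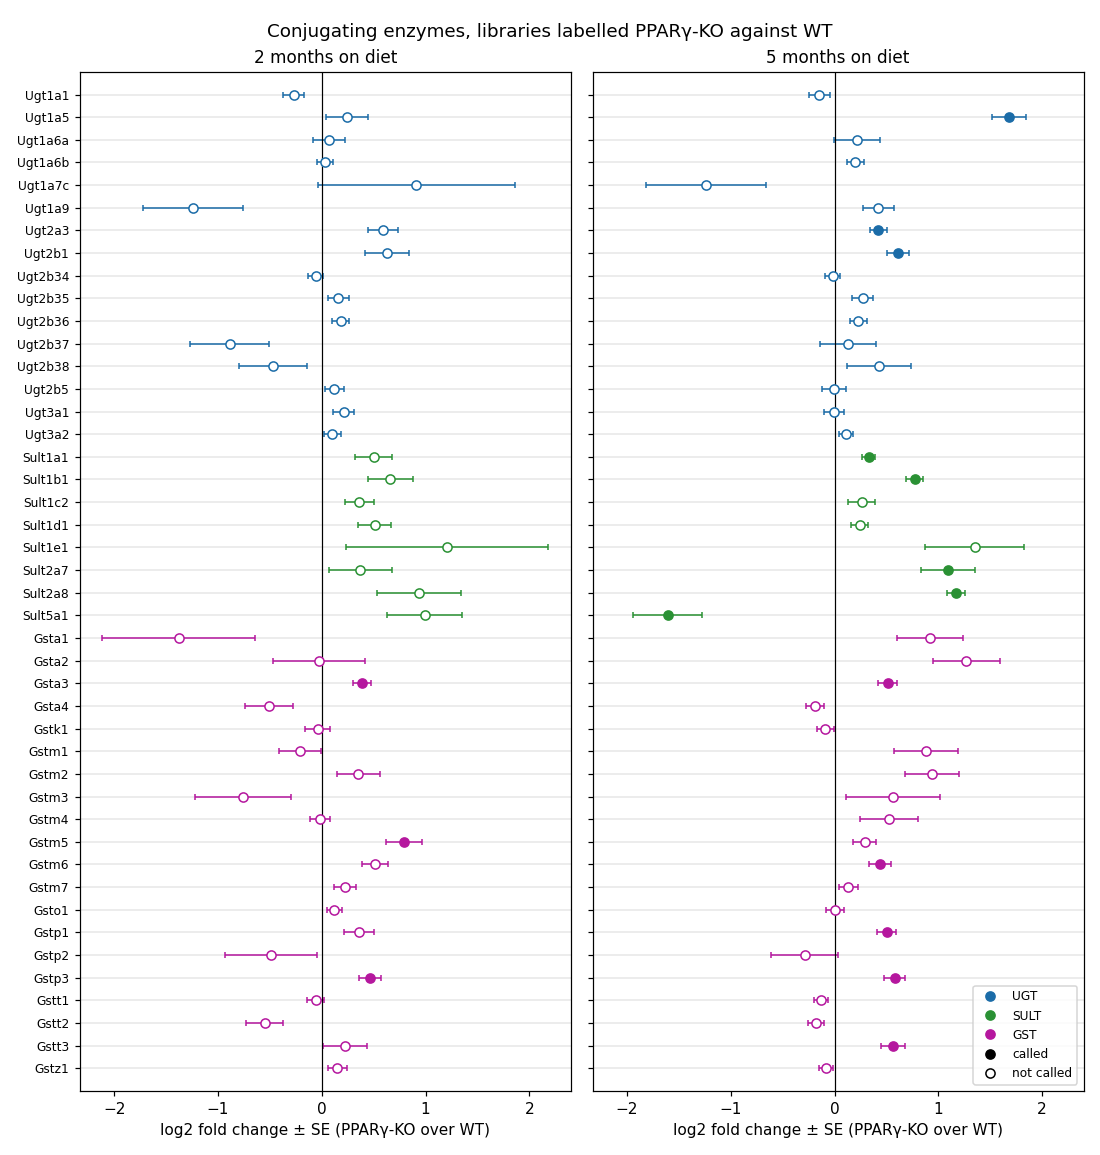
Log2 fold change (x axis, PPARγ-KO over WT) with its standard error for the 44 tested members (rows, coloured by superfamily) at 2 months (left) and 5 months (right). Filled points passed the adjusted p of 0.05: 3 at 2 months, all to the right of 0, and 13 at 5 months, of which Sult5a1 alone lay to the left.

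Of the 3 superfamilies, the sulfotransferases had the highest median at both times. All 8 tested SULT genes had a positive fold change at 2 months, with a median log2 value of 0.58, but none was called. At 5 months 7 of 8 were positive with a median of 0.55, and 4 were called higher and 1 lower. Sult2a8 stood at 642, 235 and 344 CPM in WT and 813, 662 and 874 CPM in PPARγ-KO at 2 months. The libraries did not overlap, yet WT replicate 1 lay close to the PPARγ-KO range, and the log2 fold change of 0.94 was not called (adjusted p = 0.308, and 0.0295 without that library, where it was 1.44). At 5 months Sult2a8 stood at 246, 207 and 209 CPM in WT and 534, 489 and 458 CPM in PPARγ-KO. The 2 groups were well apart, with a log2 fold change of 1.17 ± 0.0837 (SE), or 2.25-fold, and an adjusted p of 2.34e-06. Sult2a7, its neighbour on chromosome 7, was far lower, at 1.66, 0.991 and 1.57 CPM in WT and 3.35, 2.67 and 2.9 CPM in PPARγ-KO at 5 months. It was called 2.13-fold higher (adjusted p = 0.0107, and 0.0556 without WT replicate 2) on 17 to 71 counts per library. At 2 months its libraries overlapped.

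Sult1b1, which sulfates thyroid hormones and small phenols, showed a similar level in all PPARγ-KO libraries at both times. It stood at 30.1, 19.6 and 16 CPM in WT and 34.9, 35.2 and 33.3 CPM in PPARγ-KO at 2 months, and at 22.3, 19.3 and 18 CPM against 34.3, 33.5 and 33.4 CPM at 5 months. The groups did not overlap at either time. The difference was called at 5 months, with a log2 fold change of 0.77 ± 0.0851 (SE) and an adjusted p of 5.69e-05, and not at 2 months (0.66, adjusted p = 0.163, and 0.000274 without WT replicate 1). Sult1a1, the phenol sulfotransferase, followed the same course, with 157, 123 and 93.9 CPM against 168, 166 and 195 CPM at 2 months and 141, 134 and 128 CPM against 168, 163 and 171 CPM at 5 months. Its libraries did not overlap at either time, and it was called at 5 months alone, by 1.25-fold (adjusted p = 0.00268). Summed over the family, SULT1 genes stood at 335 ± 26 CPM in WT and 416 ± 6.77 CPM in PPARγ-KO (SD, n = 3) at 5 months.

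Sult5a1, a sulfotransferase whose substrate is not established, had a genotype difference that itself differed between the times. It stood at 8.07, 2.88 and 5.07 CPM in WT and 13.6, 8.49 and 9.71 CPM in PPARγ-KO at 2 months, and at 3.67, 2.97 and 3.08 CPM against 1.7, 0.564 and 0.82 CPM at 5 months. PPARγ-KO was thus above WT in every library at 2 months and below it in every library at 5 months. The log2 fold change was 0.99 at 2 months (adjusted p = 0.203, and 0.0112 with the replicate block) and -1.61 ± 0.336 (SE) at 5 months (adjusted p = 0.00491). The difference between the 2 fold changes was -2.61 ± 0.56 (SE) on the log2 scale with an adjusted p of 0.0421, a comparison in which 0.661% of 15127 genes were called higher and 0.912% lower. The lowest PPARγ-KO library at 5 months held 11 counts. Left out singly, 8 of the 12 libraries took this call away, with an adjusted p of at most 0.125. With the replicate block the adjusted p was 0.00251, and Ugt1a9 was called as well (1.53, adjusted p = 0.0415). That block also paired the libraries at 5 months, where same-numbered libraries had no positive correlation (-0.0751, -0.0618 and -0.185). Both values rest on that pairing.

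Among the glucuronosyltransferases the largest difference was that of Ugt1a5. It stood at 44.6, 42.3 and 37.8 CPM in WT and 44.6, 37.4 and 65.3 CPM in PPARγ-KO at 2 months, where the groups overlapped. At 5 months it stood at 11.4, 9.03 and 10.1 CPM in WT and 25.2, 39.2 and 33.1 CPM in PPARγ-KO, a log2 fold change of 1.68 ± 0.163 (SE), or 3.21-fold, with an adjusted p of 0.000147. The lowest PPARγ-KO library was above every WT library, and 59.5% of the exon bases of Ugt1a5 are shared with other Ugt1a genes. The change in its genotype difference between the times, 1.43 on the log2 scale, was not called (adjusted p = 0.0594). None of the other 5 tested Ugt1a genes was called between genotypes at either time, and the UGT1A sum was 146 ± 8.42 CPM in WT and 170 ± 23.2 CPM in PPARγ-KO (SD, n = 3) at 5 months.

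In the UGT2 cluster on chromosome 5, Ugt2b1 and Ugt2a3 were called at 5 months. Ugt2b1, one of the steroid-conjugating forms, stood at 539, 289 and 407 CPM in WT and 692, 611 and 601 CPM in PPARγ-KO at 2 months, and at 532, 398 and 395 CPM against 650, 699 and 658 CPM at 5 months. Ugt2a3 stood at 242, 155 and 199 CPM against 301, 299 and 302 CPM at 2 months, and at 228, 191 and 182 CPM against 268, 278 and 253 CPM at 5 months. Every PPARγ-KO library of both genes was above every WT library of its time. The log2 fold changes at 5 months were 0.61 ± 0.106 (SE, adjusted p = 0.00207) and 0.42 ± 0.0825 (adjusted p = 0.00337). At 2 months they were 0.63 (adjusted p = 0.183, and 0.0284 with the replicate block) and 0.59 (adjusted p = 0.0603, and 0.0199 with the block). The abundant Ugt2b5, Ugt2b34 and Ugt2b36 and both Ugt3a genes were not called at either time, with log2 fold changes between -0.06 and 0.23. The blocked fit at 2 months also called Ugt1a9, at 16.4, 48.9 and 24.2 CPM in WT and 9.47, 15.8 and 12.8 CPM in PPARγ-KO, lower by 1.13 on the log2 scale (adjusted p = 0.0104, and 0.268 without the block).

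Gsta3 and Gstp3 were the 2 members called in the same direction at both times. Gsta3, a class alpha enzyme known for the detoxication of aflatoxin epoxide in mouse liver, stood at 1260, 1120 and 1210 CPM in WT and 1500, 1610 and 1570 CPM in PPARγ-KO at 2 months, and at 1650, 1420 and 1400 CPM against 1920, 2180 and 2210 CPM at 5 months. Gstp3, of class pi, stood at 15.5, 17.8 and 15.3 CPM against 21.1, 24.7 and 21 CPM, and at 17.5, 23.4 and 22.8 CPM against 31.6, 31.5 and 31.2 CPM. Neither gene overlapped between genotypes at either time. Gsta3 was 1.31-fold higher at 2 months (adjusted p = 0.0408) and 1.42-fold higher at 5 months (adjusted p = 0.00153). With the replicate block its adjusted p at 2 months was 0.0795. Gstp3 was 1.38-fold higher at 2 months (adjusted p = 0.0466, and 0.0255 with the block) and 1.49-fold higher at 5 months (adjusted p = 0.00156). Both calls at 2 months were lost on the library totals alone, without any single PPARγ-KO library, and without WT replicate 2 or 3.

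The sequence around the transcription start of these genes is shown from RefSeq (GRCm38.p6), from 250 bases before the start to 50 bases after it, written 5′ to 3′ on the strand of the gene. Gsta3 and Gstp3 are shown because both passed the test at both times, and Sult1b1, in the second of its 2 windows, because it alone of the 56 members with an entry held the HNF4 word, a choice made after its values were seen. Capitals mark matches, on either strand, to 6 words: AGGTCA (the nuclear receptor hexamer), TGACNNNGC (the core of the antioxidant response element bound by NRF2), GTTAAT (part of the HNF1 site), CAAAGTCCA (an HNF4 site), GCGTG (the aryl hydrocarbon receptor core) and TATAAA. The windows lie at chr1:21240335-21240634 (plus strand), chr19:4059398-4059697 (minus strand) and chr5:87536173-87536472 (minus strand).
Gsta3: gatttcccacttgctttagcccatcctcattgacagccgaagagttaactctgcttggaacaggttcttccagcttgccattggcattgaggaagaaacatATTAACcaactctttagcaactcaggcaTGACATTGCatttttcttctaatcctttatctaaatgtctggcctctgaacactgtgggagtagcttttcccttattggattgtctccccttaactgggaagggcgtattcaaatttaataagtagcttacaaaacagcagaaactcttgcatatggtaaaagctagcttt
Gstp3: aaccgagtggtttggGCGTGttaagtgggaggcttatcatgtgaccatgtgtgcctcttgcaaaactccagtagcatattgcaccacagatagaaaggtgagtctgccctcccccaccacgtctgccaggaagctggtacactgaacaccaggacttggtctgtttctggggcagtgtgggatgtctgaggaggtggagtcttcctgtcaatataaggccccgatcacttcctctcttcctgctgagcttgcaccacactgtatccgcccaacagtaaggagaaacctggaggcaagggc
Sult1b1: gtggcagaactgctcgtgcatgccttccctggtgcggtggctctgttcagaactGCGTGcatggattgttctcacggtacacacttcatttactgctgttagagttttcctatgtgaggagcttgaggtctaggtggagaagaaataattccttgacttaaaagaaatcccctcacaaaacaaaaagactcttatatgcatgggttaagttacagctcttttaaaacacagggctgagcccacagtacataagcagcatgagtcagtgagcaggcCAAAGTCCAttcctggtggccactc
Gsta3 held the antioxidant core as TGACATTGC, 121 bases before the start, and the HNF1 word on the opposite strand, 149 bases before it. The antioxidant core occurred in 12.4% of the 32851 mouse promoter windows and in 4.48% of the 67 windows of the members (Gsta3, Gstm5 and Gstm7). In the Sult1b1 window shown, the HNF4 word began 26 bases into the transcript, and it occurred in 0.475% of all windows. The first Sult1b1 window (chr5:87538146-87538445, minus strand), at the start of the gene as counted, held no HNF4 word. It held AGGTCA on the opposite strand 123 bases before the start, and on the strand of the gene 39 bases into the transcript. The nuclear receptor hexamer was found in 16.3% of all windows and 17.9% of those of the members, GTTAAT in 7.1% and 20.9%, GCGTG in 32.4% and 19.4%, and TATAAA in 13.6% and 22.4%. Gstp3 held GCGTG alone. These matches describe the letters of a short window and are not evidence of binding.

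**Figure D2:**
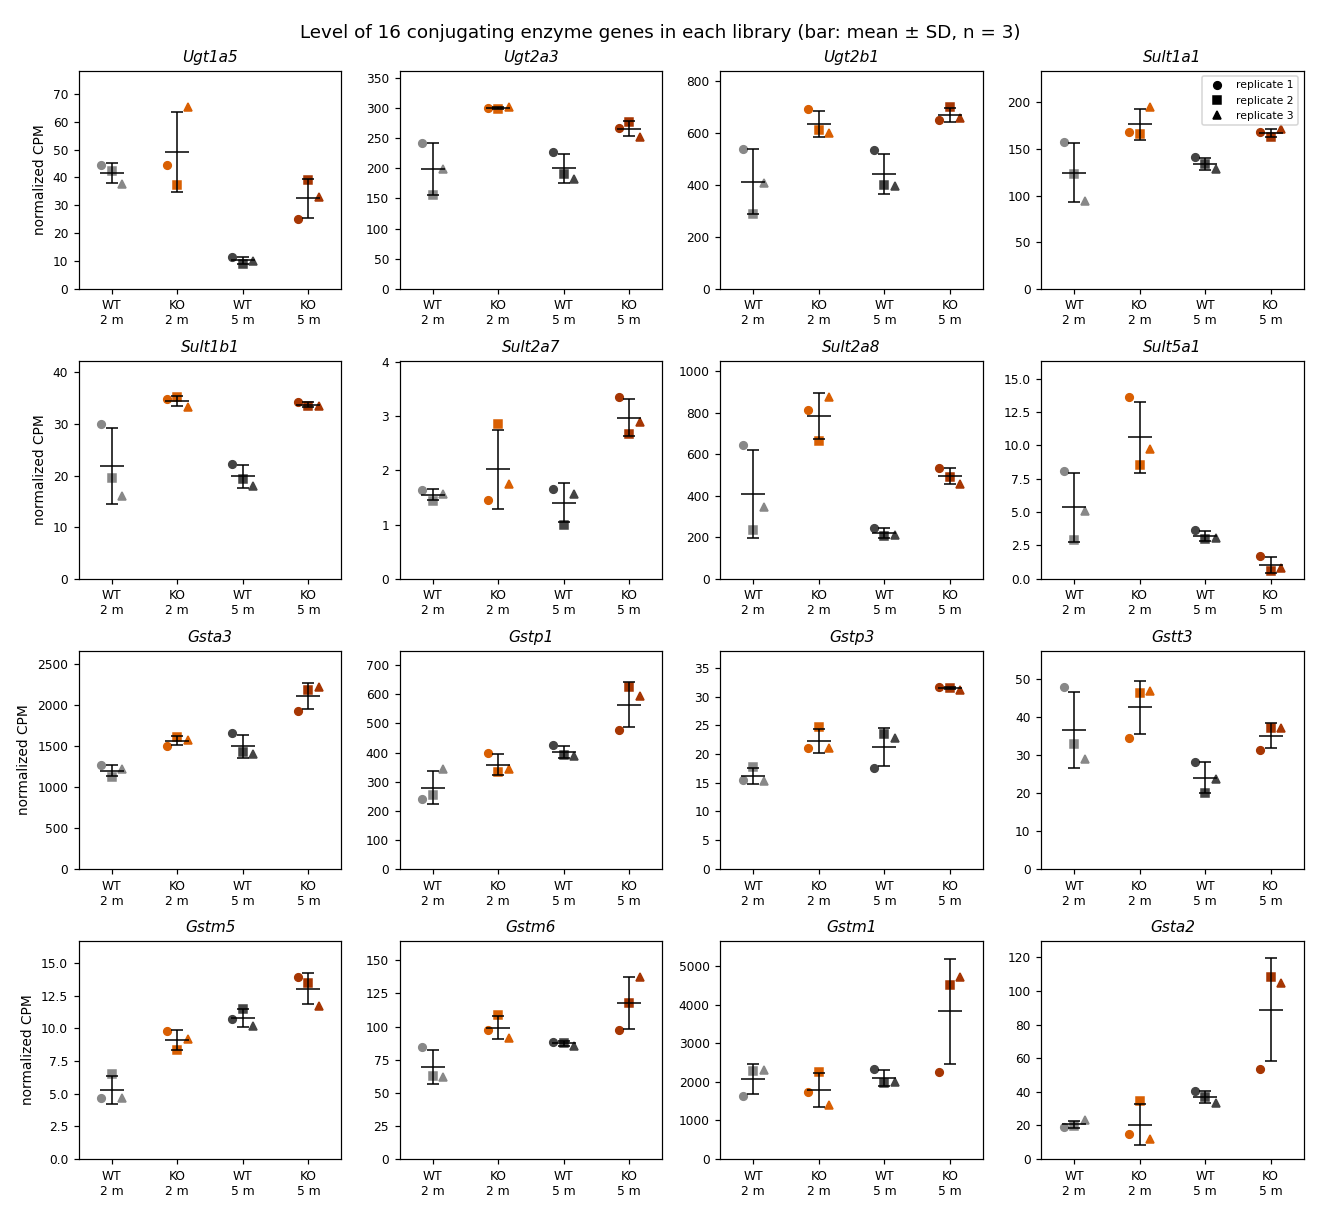
Normalized CPM (y axis, from 0) of 16 member genes in each of the 12 libraries, by genotype and months of diet, with points shaped by replicate number and bars giving the mean ± SD of 3 libraries. Sult1b1, Sult2a8, Gsta3 and Gstp3 were higher in every PPARγ-KO library at both times, Sult5a1 changed sides, and Gstm1 and Gsta2 in PPARγ-KO replicate 1 at 5 months lay below replicates 2 and 3.

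At 5 months, 3 more GST genes were called. Gstp1, the abundant class pi enzyme, stood at 425, 390 and 388 CPM in WT and 477, 624 and 594 CPM in PPARγ-KO and was 1.42-fold higher (adjusted p = 0.00259). Gstm6 stood at 88.4, 87.8 and 85.4 CPM against 97.5, 118 and 137 CPM, 1.35-fold higher (adjusted p = 0.0156); that call was lost without any single WT library and in the fit of all 12 libraries, with an adjusted p of at most 0.0991 over the alternatives. Gstt3, of class theta, stood at 28.2, 20 and 23.6 CPM against 31.2, 36.9 and 37 CPM, 1.47-fold higher (adjusted p = 0.00712). The groups of all 3 genes were separate at 5 months, and those of Gstm6 also at 2 months, where its adjusted p was 0.0681 and 0.0305 with the replicate block. Gstm5, a low member of class mu, was called at 2 months, at 4.69, 6.48 and 4.67 CPM in WT and 9.83, 8.32 and 9.19 CPM in PPARγ-KO, 1.73-fold higher (adjusted p = 0.0362, and up to 0.141 over the alternatives, lost without any single PPARγ-KO library or WT replicate 3). At 5 months its groups were again separate, at 10.7, 11.5 and 10.2 CPM against 13.9, 13.5 and 11.7 CPM, with a log2 fold change of 0.29 that was not called (adjusted p = 0.0938).

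A set of 6 mu and alpha genes differed among the PPARγ-KO livers at 5 months, and some of them also differed among libraries at 2 months. Gstm1 stood at 2330, 1960 and 1990 CPM in WT and 2260, 4520 and 4710 CPM in PPARγ-KO, so that replicate 1 lay within the WT range and replicates 2 and 3 above it. Gsta2 stood at 40.6, 36.9 and 33.6 CPM against 53.7, 108 and 105 CPM, and Gsta1 at 25.1, 25 and 25.2 CPM against 28.8, 62.6 and 50.7 CPM. In both genes replicate 1 was the nearest to WT. In Gstm2, Gstm3 and Gstm4 replicate 1 was again the lowest, with 117, 216 and 183 CPM, 194, 553 and 506 CPM, and 89.1, 154 and 170 CPM in the 3 PPARγ-KO libraries, and for Gstm3 and Gstm4 it lay below the lowest WT libraries, at 253 and 89.4 CPM. None of these 6 genes was called with all libraries (log2 fold changes of 0.52 to 1.27, adjusted p = 0.0646 to 0.494). Without PPARγ-KO replicate 1 all 6 were called, by 1.69-fold for Gstm4 up to 2.9-fold for Gsta2. The number of called members rose from 13 to 24, 23 higher and 1 lower, where 7.72% of genes were called higher and 7.86% lower. The 6 genes were chosen after their values were seen, with replicate 1 the lowest of the 3 PPARγ-KO libraries in each. Their calls without it are therefore no separate support. The mu sum was 3010, 2540 and 2590 CPM in WT and 2830, 5630 and 5780 CPM in PPARγ-KO. Over all genes, the chi-square per gene of replicate 1 was 16.23 and 11.9 against its partners and 9.397 between them. Such spread was not limited to this group. In WT at 2 months Gsta1 stood at 5.4, 18.8 and 18.9 CPM, Gstm1 at 1640, 2280 and 2320 CPM, and Gstm3 at 198 ± 69.6 CPM (SD). The WT libraries of Gsta2 and Gstm4 lay closer together there, while Gsta2 in PPARγ-KO stood at 14.7, 34.5 and 12.1 CPM. Log2 fold changes of the 6 genes at 2 months ran from -1.38 for Gsta1 to 0.35 for Gstm2, none called without the block.

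**Figure D3:**
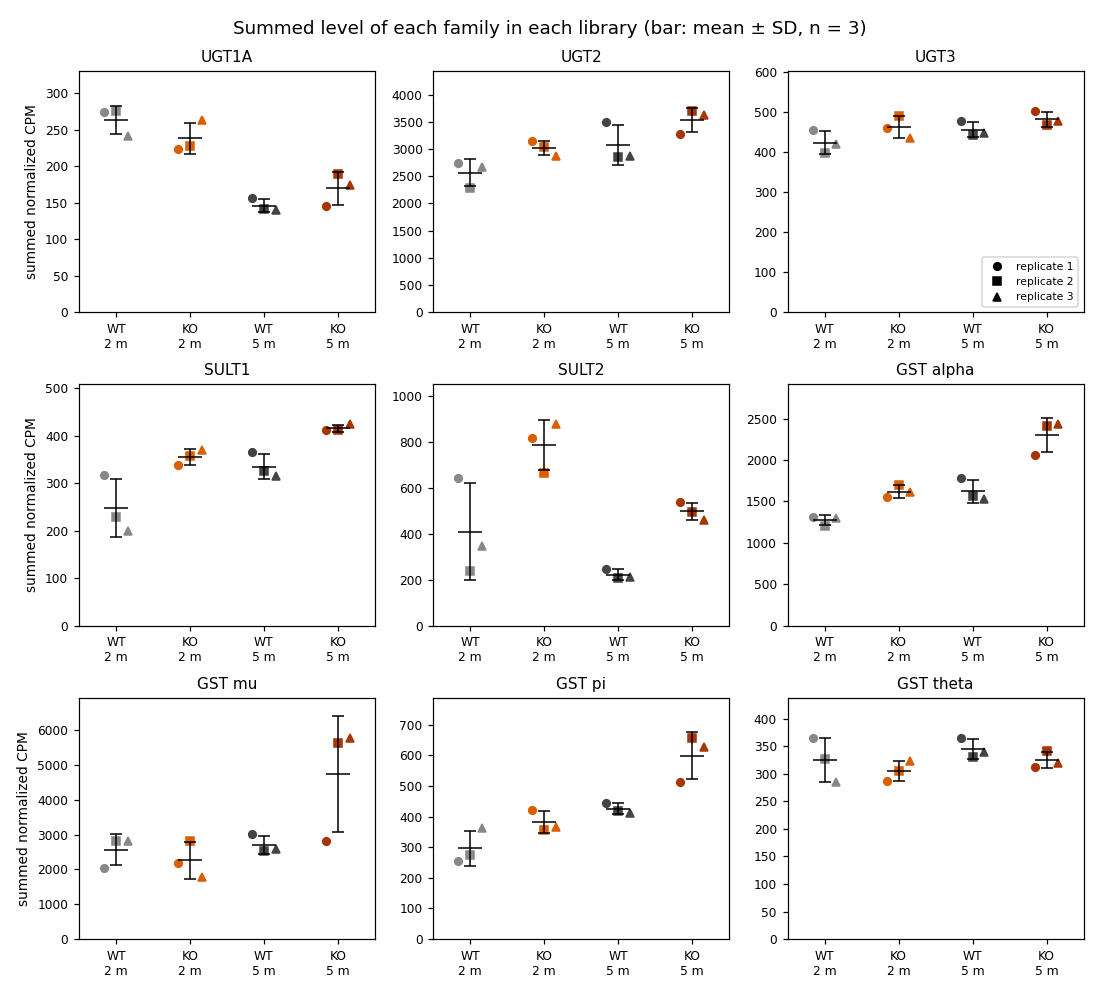
Summed normalized CPM (y axis, from 0) of 9 families in each library, with points shaped by replicate number and bars giving the mean ± SD of 3 libraries. SULT2 was separate between genotypes at both times, and the GST mu sum of PPARγ-KO at 5 months split into 2830 CPM in replicate 1 and 5630 and 5780 CPM in the others.

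Each genotype was then followed from 2 to 5 months of FFD. In WT, 21 members were called, 16 higher and 5 lower at 5 months, where 23.8% of 14491 genes were called higher and 22.7% lower. In PPARγ-KO, 25 were called, 18 higher and 7 lower, where 22.7% of 14478 genes were called higher and 22.2% lower. The labels do not say whether the livers of the 2 times were prepared together, so that diet time, age and preparation cannot be told apart, and these comparisons use the same libraries as those between genotypes. Cell type markers moved with time as well: in WT 11 of 12 macrophage markers were called higher and 7 of 10 endothelial markers lower at 5 months, and in PPARγ-KO 5 macrophage markers were higher and 2 lower, and 8 endothelial markers lower. Their part in these results was not tested. The median log2 fold change of the members was 0.25 in WT and 0.27 in PPARγ-KO, beside -0.013 and -0.011 over all genes.

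By family, GST genes made up most of the rises in both genotypes, and UGT1A genes made up 4 of the 5 falls in WT and 3 of the 7 in PPARγ-KO. Of 20 tested GST genes, 11 rose and 1 fell in WT, and 12 rose and 1 fell in PPARγ-KO. All 4 class alpha genes rose in PPARγ-KO, and Gsta2, Gsta3 and Gsta4 did so in WT. Gstt2, of class theta, was the GST gene that fell in both genotypes, from 64.3, 55.4 and 42.1 to 29.7, 29 and 30.1 CPM in WT (0.548-fold, adjusted p = 0.00101) and from 33.4, 32.8 and 44.1 to 24.3, 24.8 and 28.7 CPM in PPARγ-KO (0.701-fold, adjusted p = 0.00782). Gstm5 rose 2.04-fold in WT (adjusted p = 0.000578) and 1.43-fold in PPARγ-KO. The largest rise of a GST gene was that of Gsta1 in PPARγ-KO, from 5.28, 9.52 and 2.23 to 28.8, 62.6 and 50.7 CPM, or 8.69-fold (adjusted p = 0.0181). The call was lost without replicate 1 at 2 months or without replicate 2 or 3 at 5 months, and the sequence of Gsta1 is largely shared. Gsta2 rose 4.39-fold in PPARγ-KO (adjusted p = 0.0413, lost without replicate 1 or 3 at 2 months or 2 or 3 at 5 months) and 1.79-fold in WT (adjusted p = 0.000105).

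Of the 6 tested UGT1A genes, 4 fell in WT and 3 in PPARγ-KO, and none rose. Ugt1a6a, a conjugator of planar phenols, went from 16.5, 12.5 and 12.5 to 2.37, 3.26 and 4.23 CPM in WT and from 12, 15 and 16.3 to 3.77, 3.69 and 4.04 CPM in PPARγ-KO. The times were far apart in both genotypes, with 0.24-fold (adjusted p = 3.52e-05) and 0.264-fold (adjusted p = 3.5e-06). Ugt1a5 fell to 0.245-fold in WT (adjusted p = 1.63e-06), whereas in PPARγ-KO its log2 change of -0.6 was not called (adjusted p = 0.144). Ugt1a6b fell to 0.662-fold in WT (adjusted p = 0.000126) and to 0.739-fold in PPARγ-KO (adjusted p = 0.00215). Ugt1a1 fell to 0.662-fold (adjusted p = 0.000558) and 0.714-fold (adjusted p = 0.00938), from 133, 109 and 111 to 85.7, 74 and 74.5 CPM in WT. The UGT1A sum went from 264 ± 19.2 to 146 ± 8.42 CPM in WT and from 238 ± 21.8 to 170 ± 23.2 CPM in PPARγ-KO (SD, n = 3).

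UGT2 genes moved the other way. Of 8 tested, 3 rose in WT and 5 rose and 1 fell in PPARγ-KO. Ugt2b37 rose from 1.75, 1.65 and 3.55 to 8.29, 4.9 and 7.46 CPM in WT (2.96-fold, adjusted p = 0.00271) and from 0.828, 1.6 and 1.34 to 9.91, 4.97 and 7.51 CPM in PPARγ-KO (5.93-fold, adjusted p = 0.000102). Ugt2b38 rose 2.96-fold in PPARγ-KO (adjusted p = 0.00662), and its log2 change of 0.68 in WT was not called (adjusted p = 0.189). Ugt2b5 and Ugt2b36, both abundant, rose in each genotype by 1.25-fold to 1.38-fold. The 1 that fell in PPARγ-KO was Ugt2a3, by 0.18 on the log2 scale (adjusted p = 0.0261), a call lost when any of 5 of the 6 libraries was left out.

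The sulfotransferases split over time. Sult1d1, which acts on catecholamines, rose in both genotypes, from 121, 78.9 and 83.5 to 191, 160 and 159 CPM in WT (1.8-fold, adjusted p = 0.00471) and from 126, 143 and 135 to 188, 202 and 205 CPM in PPARγ-KO (1.47-fold, adjusted p = 5.73e-05). Sult1e1, the estrogen sulfotransferase, rose in WT from 1.75, 0.669 and 0.304 to 3.02, 2.74 and 2.51 CPM (3.05-fold, adjusted p = 0.0191, lost without replicate 2 at 2 months or 1 or 2 at 5 months). In PPARγ-KO it stood at 0.983, 4.79 and 0.67 CPM and then 12.1, 4.87 and 3.72 CPM, with overlap between the times and a log2 change of 1.77 that was not called (adjusted p = 0.196). Sult2a8 fell to 0.629-fold in PPARγ-KO (adjusted p = 0.000614). In WT its log2 change of -0.88 was not called (adjusted p = 0.143), with replicate 1 at 2 months at 642 CPM and the other libraries of that group at 235 and 344. Sult5a1 fell to 0.0996-fold in PPARγ-KO (adjusted p = 0.000118), and its log2 change of -0.72 in WT was not called (adjusted p = 0.106).

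**Figure D4:**
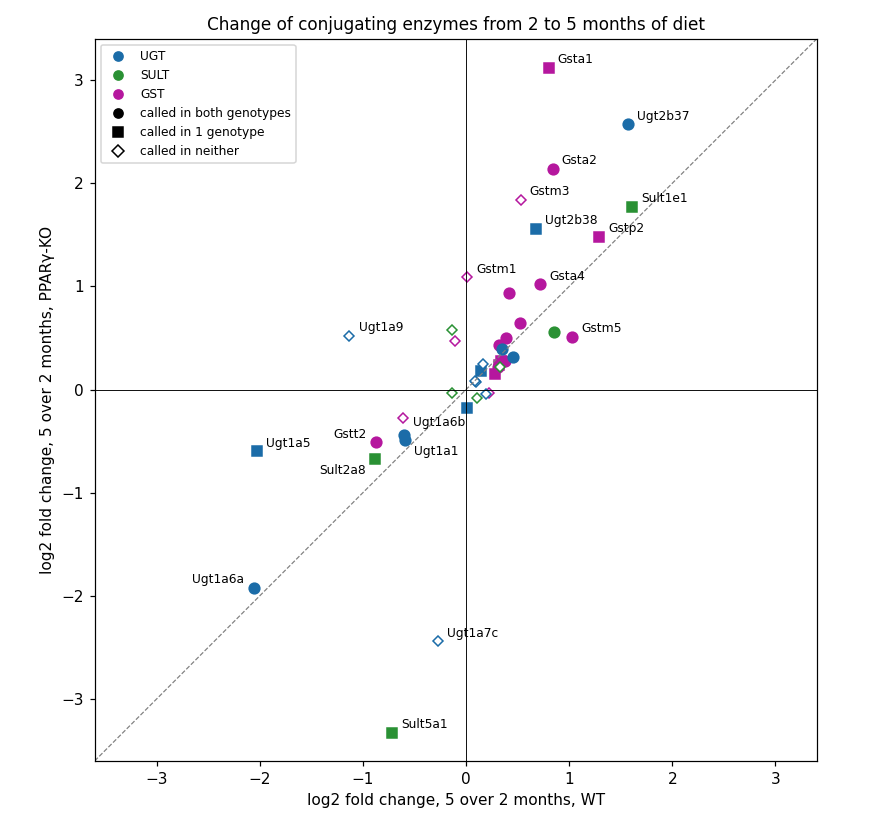
Log2 fold change from 2 to 5 months of diet in WT (x axis) and in PPARγ-KO (y axis) for the 44 tested members, coloured by superfamily and shaped by the number of genotypes in which the gene was called; the dashed line marks equal change. Ugt1a6a lies far below 0 on both axes, Ugt1a5 below 0 mainly in WT, Sult5a1 mainly in PPARγ-KO, and Gsta1 and Ugt2b37 lie highest on the y axis.

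Genes that supply or follow these enzymes were read from lists drawn up with earlier results known. Of 6 genes listed as partners of glucuronidation (Ugdh, Ugp2, Slc35d1, Slc35b1, Slc35a3 and Gusb), 2 were called higher at 5 months and none at 2 months. Ugdh was not called, with means of 224 CPM in WT and 267 CPM in PPARγ-KO at 5 months. Ugp2, which makes UDP-glucose, stood at 620, 554 and 551 CPM in WT and 805, 968 and 798 CPM in PPARγ-KO (log2 fold change 0.59, adjusted p = 0.000535), and Slc35a3, a nucleotide sugar transporter, had a log2 fold change of 0.26 (adjusted p = 0.0105). The median of the list was 0.14. Of 12 tested genes listed as partners of sulfation, Papss2, a PAPS synthase, was called higher at 5 months (log2 fold change 0.39, adjusted p = 0.0102). The sulfate transporter Slc26a1 was called higher at both times (0.63, adjusted p = 0.0147, and 0.44, adjusted p = 0.00276). At 2 months Slc26a2 (-0.63, adjusted p = 0.0416) and Slc13a4 (-2.11, adjusted p = 0.0237) were called lower. The medians of this list were 0.02 and 0.08.

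For glutathione, 14 genes of synthesis and use were tested. Gpx4, which reduces lipid hydroperoxides, was lower at both times (log2 fold changes -0.62 and -0.46, adjusted p = 0.0205 and 0.000626). At 5 months Gpx1 was also lower (-0.56, adjusted p = 0.00203), and Glrx (0.54, adjusted p = 0.000344) and Gclm, the modifier subunit of the first step of glutathione synthesis, were higher (0.2, adjusted p = 0.0473). Among 8 tested microsomal and other glutathione transferases that the symbol rule left out, 3 were lower at 5 months and none was called at 2 months. The 3 were Hpgds (-0.66, adjusted p = 0.0323), Mgst3 (-0.61, adjusted p = 0.0472) and Clic1 (-0.6, adjusted p = 0.000541). Hpgds is also expressed in macrophages, whose marker sum was lower at 5 months, and the part of this in its value was not tested. The list medians at 5 months were 0.07 and -0.19. Of 17 tested enzymes of other conjugations, Nat8, an acetyltransferase of cysteine conjugates, was higher at both times (0.73, adjusted p = 0.0223, and 0.86, adjusted p = 0.000189), Acsm3 was lower at both times (-0.5, adjusted p = 0.0148, and -0.47, adjusted p = 0.000333), and Acsm1 was higher at 5 months (0.24, adjusted p = 0.0405).

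Of 10 pumps that export conjugates, Abcc3 and Abcb1a were lower at both times. Abcc3, the basolateral pump for glucuronides, stood at 440, 479 and 482 CPM in WT and 207, 260 and 186 CPM in PPARγ-KO at 2 months, and at 383, 374 and 357 CPM against 201, 290 and 289 CPM at 5 months. The groups were separate at both times, with log2 fold changes of -1.1 (adjusted p = 0.00245) and -0.5 (adjusted p = 0.0316). Abcb1a had log2 fold changes of -0.9 (adjusted p = 0.028) and -0.52 (adjusted p = 0.0172). Abcc1 was lower at 5 months (-0.72, adjusted p = 0.0307), and Abcc2, the canalicular conjugate pump (0.43, adjusted p = 0.00177), and Abcc6 (0.24, adjusted p = 0.0141) were higher. The list medians were -0.17 and 0.02.

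Of 22 transcription factors of hepatic and xenobiotic control, Pparg was the only one called at 2 months (log2 fold change 0.52, adjusted p = 0.0309). At 5 months 8 were higher and 1 lower, with a list median of 0.2. Nfe2l2, which encodes NRF2, stood at 109, 112 and 112 CPM in WT and 73.2, 74.1 and 78.5 CPM in PPARγ-KO (log2 fold change -0.55, adjusted p = 5.7e-05). Nr1i3, which encodes CAR, stood at 12.6, 13.1 and 11.5 CPM against 15.9, 19.8 and 21.3 CPM (0.62, adjusted p = 0.00302). The others were Pparg (1.15, adjusted p = 2.57e-06), Nr0b2 (1.12, adjusted p = 2.57e-06), Mafg (0.49, adjusted p = 0.00113), Ppara (0.45, adjusted p = 0.00125), Cebpb (0.34, adjusted p = 0.0097), Hnf4a (0.28, adjusted p = 0.0151) and Arnt (0.25, adjusted p = 0.0194).

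Targets of these factors outside the families were called in both directions. Of 16 CAR and PXR targets, 6 were higher and 3 lower at 5 months, and 1 was higher and 2 lower at 2 months. Cyp2c29 was higher at both times (log2 fold changes 1.41, adjusted p = 0.0237, and 1.12, adjusted p = 8.12e-06), as was Cyp2b10 at 5 months (0.93, adjusted p = 0.0131), while Cyp3a11 was lower at both (-0.47, adjusted p = 0.0268, or 0.0523 with the replicate block, and -1.16, adjusted p = 0.00203). Of 16 NRF2 targets, 4 were higher and 1 lower at 5 months and none was called at 2 months. Those higher were Gclm, the NADPH-forming Me1 (0.72, adjusted p = 0.0414) and Pgd (0.66, adjusted p = 0.00516), and the transketolase Tkt (0.3, adjusted p = 0.0275), and the lower one was Osgin1 (-0.73, adjusted p = 0.000232). Of 5 tested aryl hydrocarbon receptor targets, Cyp1a2 was higher at both times (1.06, adjusted p = 0.00549, and 1.26, adjusted p = 2.12e-05). The medians at 5 months were 0.11, 0.18 and 0.58 for the CAR and PXR, NRF2 and aryl hydrocarbon receptor lists.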

How the data were processed

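Liver RNA was sequenced in 12 libraries. The authors deposited whole-number read counts per gene with gene lengths and annotation columns, not normalized, mapped to mm10 (by STAR in the study's methods, by HISAT2 in the submitters' processing notes). The counting tool, annotation release and strand setting are not given in the sources used here. Gene lengths equalled exon unions of GENCODE M21 for 98.01% of 54495 genes. Members and lists were chosen with earlier results of these data known. Named were members called between genotypes, the highest of each family, the 4 largest rises and falls over time, members separate at both times, and up to 4 called genes per list. Exceptions chosen after values were seen are the Sult1b1 promoter, Ugt1a9 and the 6 alpha and mu genes of the 5-month paragraph.

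Counts were normalized by TMM (factors 0.9494 to 1.088) and tested in edgeR 4.0.16 (R 4.3.3, limma 3.58.1) with a quasi-likelihood test over all genes left by filterByExpr, in a fit of the 6 libraries compared, or of all 12 for the difference between the 2 genotype effects, with Benjamini-Hochberg adjustment and a threshold of 0.05. Values are normalized CPM, and means are given ± SD of 3 libraries. Libraries are labelled as repeats, which does not say whether each is a separate animal. The p-values set a group difference against the spread between these libraries, so they need not reflect the spread between animals. The alternatives were DESeq2 1.42.0, its size factors, library totals alone, no filter on low counts (every gene with a count), at least 10 counts in every library, a replicate block, a fit of all 12 libraries, an unadjusted p with a 1.3-fold limit, and each library left out. The scripts were tested on simulated data. A listed gene is not reported here. Library totals alone gave a median log2 fold change over all genes of -0.082 (2 months) and -0.073 (5 months). The replicate numbers were taken to pair the libraries at 2 months, where same-numbered libraries of the 2 genotypes had correlated deviations over 5000 genes (0.221, 0.325 and 0.139). Pairs of unlike number reached at most 0.115 there, and the labels name no pairing. At 5 months same-numbered libraries had no such correlation (-0.0751, -0.0618 and -0.185), and within a genotype over time not every pair was above 0.1. The block for the difference between the 2 genotype effects still paired libraries at both times. Promoters came from RefSeq GRCm38.p6 windows, matched by symbol for 56 of 64 members.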

Additional observations from a re-analysis of the deposited data

Results flagged for a closer look

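Sult5a1 is listed here because its genotype difference differed between 2 and 5 months of diet in a test of that difference itself, by -2.61 on the log2 scale (PPARγ-KO over WT at 5 months minus that at 2 months). Every PPARγ-KO library was above every WT library at 2 months and below every WT library at 5 months. No other tested member passed this test in the fit of all libraries without a block. With the replicate block, which also paired the libraries at 5 months, Ugt1a9 passed it too (1.53, adjusted p = 0.0415). Ugt1a5 (1.43, adjusted p = 0.0594) passed this test with DESeq2, with library totals alone and with at least 10 counts in every library. Without PPARγ-KO replicate 1 at 5 months, Gstm1 (1.35, adjusted p = 0.0256), Gstm4 (0.76, adjusted p = 0.0195) and Ugt1a5 (1.59, adjusted p = 0.0276) passed it as well. Gstm1 and Gstm4 were chosen after their values were seen, with that library the lowest of its group, so their calls are no separate support.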

How the results depend on the processing

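At 2 months the 3 called members became 1 with library totals alone, 11 with DESeq2, 12 without a filter on low counts, 8 with the replicate block, 8 in the fit of all 12 libraries and 12 by an unadjusted p with a 1.3-fold limit. Leaving out 1 library gave 0 to 14, and none of the 3 was called under every alternative. At 5 months the 13 became 20 with DESeq2, 21 without the filter, 18 by the unadjusted p and 10 in the fit of all 12 libraries. With a library left out they became 11 to 24, and 8 of the 13 were called under every alternative. Over time, 21 in WT gave 16 to 29 and 25 in PPARγ-KO gave 19 to 29 with a library left out, and no other alternative moved these counts by over 1.5 times. In the difference between times, 1 became 2 with library totals alone, 2 with DESeq2, 2 with at least 10 counts in every library, 2 with the replicate block, 6 by the unadjusted p, and 0 to 4 with a library left out. No called member reversed its direction in a comparison where it was called. Over the called members and alternatives, 767 results kept their call and 119 lost it. Named members that were not called and the genes of the lists were not part of this count. Beside the blocked values in the report, the replicate block at 2 months added Gstm2 (1.27-fold, adjusted p = 0.0313). The cause of these changes was not tested. Genes with few counts, such as Sult2a7 and Sult5a1, are the least precise of those called, and shared sequence limits Ugt1a genes, Gsta1, Gsta2 and Gstp1.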

Other observations

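Genes known for sex-biased levels in mouse liver were read beside the families. Of 13 tested male-predominant genes, Slco1a1 (log2 fold change 2.7, adjusted p = 0.0354) and Cyp2d9 (0.89, adjusted p = 0.00631) were higher in PPARγ-KO at 5 months, with a list median of 0.27, and none of 14 was called at 2 months, with a median of 0.66. Of 13 tested female-predominant genes, Cyp2b13 (2.93, adjusted p = 0.00574), Cyp2c40 (1.74, adjusted p = 0.0181) and Cyp2b9 (1.63, adjusted p = 0.000877) were higher at 5 months, where the list median was 0.61. At 2 months Acot3 (-1.86, adjusted p = 0.0253, and 0.0608 with the replicate block) and Abcd2 (-0.86, adjusted p = 0.0302, and 0.0523 with the block) were lower, with a median of -0.42.

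Several sulfotransferases were left out by the filter on low counts. Sult3a1, a female-predominant form, had 1, 0 and 0 counts in WT and 3, 9 and 13 counts in PPARγ-KO at 5 months. At 2 months it had 4, 0 and 0 counts in WT and 7, 2 and 2 in PPARγ-KO. Sult2a2 had 3, 0 and 2 counts against 3, 12 and 13 counts at 5 months. Without PPARγ-KO replicate 1 at 5 months Sult2a2 passed the filter and was called 7.18-fold higher (adjusted p = 0.0218), a ratio of few counts. Sult2a2 shares 34.6% of its 100-base stretches with Sult2a1 or Sult2a5.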
